A study of Mus musculus with 8 samples.

Results

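The 41 genes described here encode nuclear subunits of respiratory complexes II, III, IV and V, together with cytochrome c. They were chosen by gene symbol as members of these complexes, and all 41 were found among the 53465 gene IDs of the count tables. All 41 passed the filter on low counts that left 14443 genes for testing. The set holds 4 subunits of complex II, 9 of complex III, cytochrome c, 12 of complex IV and 15 of complex V. It is not complete, since Atp5f1 of complex V, for example, is outside it.

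The treated cells were regulatory T cells (Tregs), polarized in vitro from wild-type mice of the C57BL/6 strain (n = 4 libraries). They received 50 µM BMS309403, an inhibitor of fatty acid-binding proteins. The control cells were Tregs of the same genotype and strain cultured without BMS309403 (n = 4 libraries). For both groups, CD4+ T cells from spleen and peripheral lymph nodes were stimulated through CD3 and CD28 with IL-2 and TGF-β while IL-4, IL-12 and IFN-γ were blocked. Cultures were divided after 72 h, and the inhibitor was added to part of them. The time of exposure, any vehicle, and the numbers and ages of the mice are not given in the sources used here. Because all CD4+ T cells were taken, Tregs already present in the mice may have entered the cultures beside the induced cells. Whether the replicates are separate mice or separate cultures is not stated, and the p-values therefore cover only how far these samples varied, which may be technical variation. Poly(A) RNA of whole cultures was sequenced, so that fewer cells of a type and less RNA per cell cannot be told apart.

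Complexes II and III pass electrons from succinate and from reduced ubiquinone along the inner mitochondrial membrane. Cytochrome c carries them to complex IV, which reduces oxygen, and complex V, the ATP synthase, uses the proton gradient that the chain builds. Nuclear genes supply all subunits of complex II and most of those of complexes III to V, while mitochondrial DNA encodes the rest. Respiration is known to contribute to the energy supply and the suppressive function of Tregs.

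Transcripts of these complexes were lower in BMS309403-treated Tregs, by small amounts. Of the 41 genes, 30 fell (adjusted p below 0.05), none rose and 11 did not pass the test, by edgeR's quasi-likelihood test with Benjamini-Hochberg adjustment over all 14443 genes. Among all genes tested, 18.1% fell and 18.7% rose. The share that fell was larger at higher levels, taken as mean counts per 1000000 counts of the library. It was 12.1% under 10, where no member lay, and 17.7% at 10 to 50, where 4 of 4 members fell. It was 22.8% at 50 to 100, 27% at 100 to 500 and 33.9% at 500 and over. There, 8 of 11, 18 of 24 and 0 of 2 members fell. The 41 log2 fold changes ran between -0.61 and 0.06 with a median of -0.23, against a median of 0.01 over all genes. They were below zero in 39 of the 41 genes. The 30 falls were 1.08-fold to 1.53-fold in size: 17 genes were at least 1.2-fold lower and 1 was at least 1.5-fold lower. With a test that asks for a change beyond 1.2-fold, 4 of the 41 genes remained, Uqcrh, Sdhd, Atp5k and Cox7b, against 4.89% of all genes. Together, the 41 genes took 0.699%, 0.635%, 0.685% and 0.632% of all counts in the 4 treated libraries, against 0.793%, 0.745%, 0.753% and 0.706% in the 4 control libraries. All 4 treated shares lay below all 4 control shares.

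**Figure D1:**
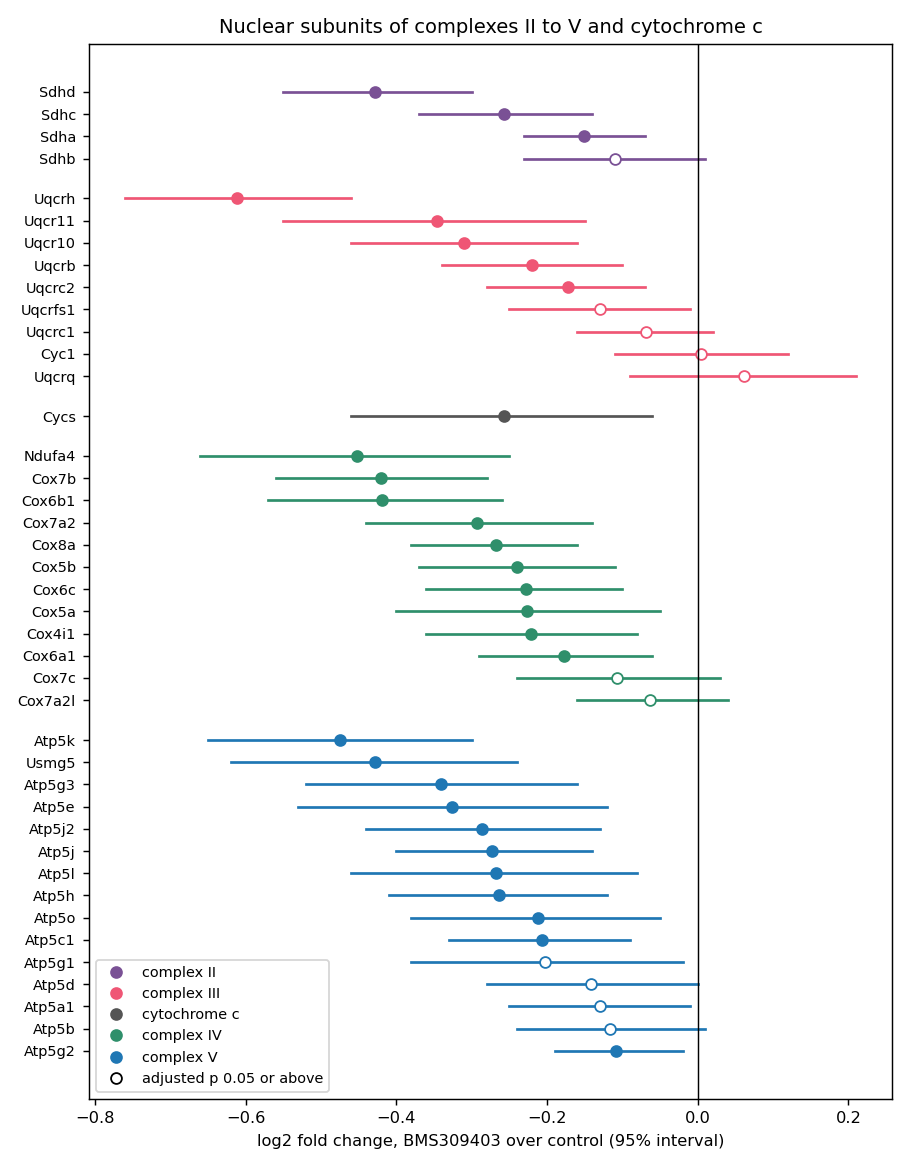
Log2 fold change (BMS309403 over control, x axis) of each of the 41 genes with its 95% interval, grouped by complex. Filled and open points separate genes that passed and did not pass the test, and the 30 genes that passed all lie left of zero.

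The libraries of a group did not lie at the same level. In each of the 41 genes the lowest treated library was replicate 2 or 4 and the highest was replicate 1 or 3. Among controls, replicate 4 was the lowest in 37 genes and replicate 1 the highest in 35. The median gene deviated from its control mean by -0.13, -0.30, -0.17 and -0.33 (log2) in treated replicates 1 to 4, and by 0.11, 0.00, 0.01 and -0.12 in control replicates 1 to 4. Control replicate 4 and treated replicate 1 therefore lay at nearly the same level. In 21 of the 41 genes (51.2%) every treated library lay below every control library, against 16.1% of all genes. Of the 20 genes whose groups overlapped, 13 overlapped only through control replicate 4. Between same-numbered libraries the median gene differed by -0.23, -0.30, -0.17 and -0.20 (log2, treated minus control), with 40, 41, 39 and 38 of 41 genes lower in the treated library.

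**Figure D2:**
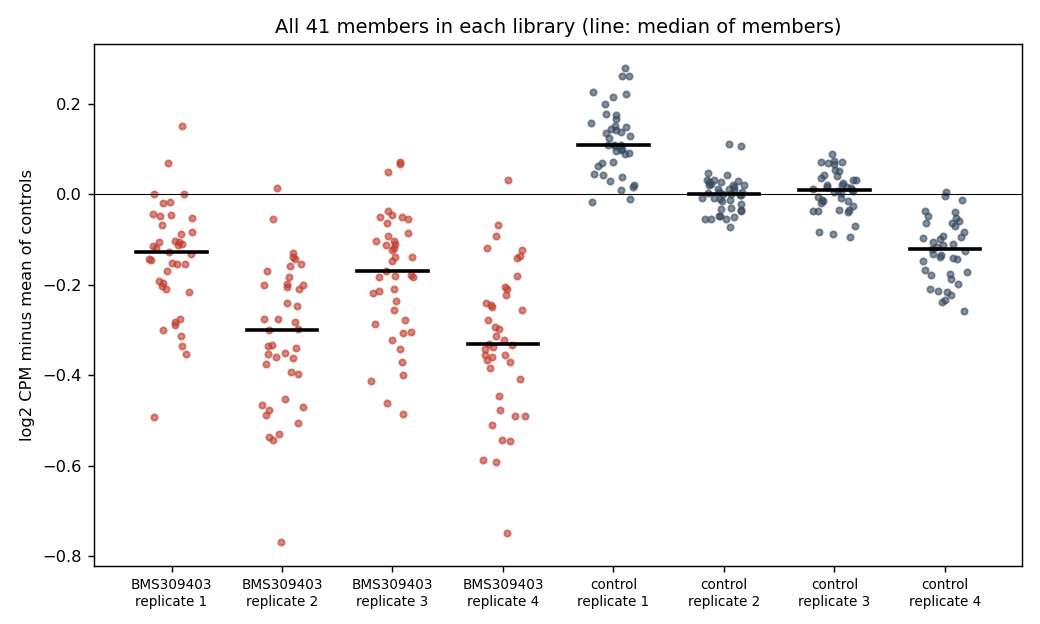
Log2 deviation of each of the 41 genes from its control mean (y axis) in each of the 8 libraries (x axis), with treated libraries on the left. Treated replicates 2 and 4 lie lowest, and control replicate 4 lies near treated replicate 1.

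Libraries held 38684721 to 42552943 counts in treated cells and 32923433 to 44644485 in control cells. Each of the 41 genes had 872 to 56663 counts in each library. How counting error compared with the spread between libraries was not tested for single genes. All 7 markers of Tregs and T cells were detected, of which 4 rose, 1 fell and 2 did not pass the test. Foxp3, the lineage factor, averaged 1247 counts per 1000000 counts of the library (CPM) in treated and 950 CPM in control cells, and Il2ra averaged 3412 and 2562 CPM. Cd3e, a chain of the T cell receptor complex, fell (191 CPM in treated and 263 CPM in control cells, log2 fold change -0.46, adjusted p = 2.54e-05), Cd4 was at -0.06 and Ctla4 at 0.06 on the log2 scale, and Ikzf2 and Tnfrsf18 rose. Markers of other cells were low. The summed B cell markers lay between 4.74 and 7.45 CPM in treated and between 5.86 and 8.71 CPM in control libraries, with 1 of 5 markers lower (Cd79b). Myeloid and dendritic markers summed to 1.16 to 3.83 CPM in treated and 2.40 to 4.22 CPM in control libraries, and 1 of the 3 that could be tested was lower (Adgre1). CD8 and NK markers summed to 17.7 to 22.6 CPM and 17.4 to 21.8 CPM, with Ncr1 at 0, and erythroid and platelet markers stayed at or below 0.341 CPM, with Hbb-bs, Hba-a2 and Ppbp at 0. The part of the B cell and myeloid markers in the results was not tested.

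Promoter elements for nuclear respiratory genes are well known, and whether they bear on the falls was not tested. The start regions of Uqcrh, Ndufa4 and Atp5k, which fell most in complexes III, IV and V, and of Cycs are printed here. They are RefSeq windows of GRCm38.p6 from 250 bases before to 50 bases after the annotated start. Uqcrh lies at chr4:116075021-116075320, Atp5k at chr5:108434350-108434649, Cycs at chr6:50566520-50566819 and Ndufa4 at chr6:11907401-11907700, all on the minus strand. Each is printed 5′ to 3′ along its gene. Capitals mark matches, on either strand, to the letters searched: GCGCATGC (NRF1), the longer NRF1 core that adds GC at its 3′ end, CCGGAAG (ETS factors such as GABP), AAGATGGC (YY1), TCAAGGTCA (ERR), TGACGTCA (CREB) and CACGTG (E box). The GC box GGGCGG was searched too and is not capitalised.
Uqcrh: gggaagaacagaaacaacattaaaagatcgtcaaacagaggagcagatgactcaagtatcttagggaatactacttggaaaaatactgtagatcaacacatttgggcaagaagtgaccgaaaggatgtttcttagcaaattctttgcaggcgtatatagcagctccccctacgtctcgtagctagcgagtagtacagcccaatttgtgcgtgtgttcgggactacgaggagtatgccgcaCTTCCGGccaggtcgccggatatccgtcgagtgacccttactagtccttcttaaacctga
Atp5k: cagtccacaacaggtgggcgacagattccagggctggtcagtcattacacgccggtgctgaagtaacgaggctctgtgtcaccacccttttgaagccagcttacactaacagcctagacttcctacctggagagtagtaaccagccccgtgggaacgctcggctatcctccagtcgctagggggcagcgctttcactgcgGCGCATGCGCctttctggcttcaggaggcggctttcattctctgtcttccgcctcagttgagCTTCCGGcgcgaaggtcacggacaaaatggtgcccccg
Cycs: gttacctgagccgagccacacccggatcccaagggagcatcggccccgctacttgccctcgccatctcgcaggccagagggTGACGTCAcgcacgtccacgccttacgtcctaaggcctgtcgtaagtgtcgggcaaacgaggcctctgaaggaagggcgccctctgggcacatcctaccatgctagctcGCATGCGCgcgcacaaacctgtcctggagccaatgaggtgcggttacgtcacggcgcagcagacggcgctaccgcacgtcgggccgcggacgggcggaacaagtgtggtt
Ndufa4: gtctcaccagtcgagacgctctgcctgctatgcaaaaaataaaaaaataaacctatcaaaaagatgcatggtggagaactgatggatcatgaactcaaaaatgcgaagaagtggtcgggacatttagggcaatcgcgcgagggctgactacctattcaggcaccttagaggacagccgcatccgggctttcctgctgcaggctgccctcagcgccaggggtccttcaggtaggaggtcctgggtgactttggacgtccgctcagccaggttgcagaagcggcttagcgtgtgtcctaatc
The Uqcrh window held an ETS match, the Atp5k window held NRF1 and ETS matches, the Cycs window held matches of the shorter NRF1 letters and of CREB, and the Ndufa4 window held no capitalised match.

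A window was used for 33 of the 41 genes. Windows on chromosome 18, where Atp5a1 lies, were left out for the members but not for all genes. CCGGAAG stood in a window of 13 of the 33 (39.4%), against 9.93% of all 27025 genes with windows of the same length. These 27025 genes were not limited to the 14443 genes tested, so they include genes too low to test in these cells. Shares over the tested genes alone were not computed for any of the elements. The NRF1 letters GCGCATGC stood in 8 (24.2%, against 3.05%), and the longer core, which contains them, in 4 (12.1%, against 1.07%). GGGCGG stood in 12 (36.4%, against 38.2%). The other 4 elements, AAGATGGC, TCAAGGTCA, TGACGTCA and CACGTG, stood in windows of 2, 2, 2 and 3 genes (6.06%, 6.06%, 6.06% and 9.09%), against 3.19%, 0.466%, 2.03% and 8.09% of all genes. Of the 13 genes with CCGGAAG, 12 fell, and of the 20 without it 13 fell, against 18.1% of all genes tested. The share of all genes with CCGGAAG that fell was not computed. Most of the 13 have transcripts under 1 kb, a class in which 23 of 26 members fell. This split therefore does not separate the letters from transcript length. The median window was 56.8% G and C for these genes and 52.7% over all windows. Such matches are letters in a window and not evidence of binding.

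In complex II, succinate dehydrogenase, 3 of 4 subunits fell and the membrane anchors had the largest fold changes, a difference between subunits that was not tested. Sdhd and Sdhc, which anchor the enzyme and form its ubiquinone site, fell 1.35-fold and 1.19-fold. Sdha, the flavoprotein that oxidises succinate, fell 1.11-fold, and Sdhb, the iron-sulfur subunit, did not pass the test. Sdhd (ENSMUSG00000000171, chr9:50596357-50603812, minus strand) had 114, 95.7, 107 and 94.8 CPM in treated cells, against 142.5, 139, 138.5 and 133 CPM in control cells. Every treated library lay below every control library, with treated replicates 2 and 4 lowest. The log2 fold change of Sdhd was -0.43 (95% interval -0.55 to -0.30, adjusted p = 0.000146). Sdhc (ENSMUSG00000058076, chr1:171127165-171150603, minus strand) had 89.4, 78.6, 87.7 and 77.6 CPM in treated cells, against 98.3, 96.2, 104 and 99.3 CPM in control cells. The groups did not overlap, and the log2 fold change was -0.26 (-0.37 to -0.14, adjusted p = 0.00282). Sdha averaged 256 ± 6.41 CPM in treated and 284.5 ± 2.65 CPM in control cells (SD, n = 4 each), again without overlap (adjusted p = 0.00708). Sdhb averaged 100.5 ± 3.58 CPM in treated and 109 ± 8.67 CPM in control cells, with an interval of -0.23 to 0.01 (adjusted p = 0.14), and fell with the replicate numbers as a block (adjusted p = 0.0111). The ratio of Sdhd to Sdha, computed after their values were seen, was 0.433, 0.382, 0.410 and 0.378 in treated libraries, against 0.495, 0.494, 0.490 and 0.464 in control libraries.

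In complex III, 5 of 9 subunits fell, and the hinge protein Uqcrh had the largest fold change of the 41 genes. The small accessory subunits Uqcrb, Uqcr10 and Uqcr11 and core protein 2 (Uqcrc2) fell with it. Core protein 1 (Uqcrc1), the Rieske iron-sulfur protein (Uqcrfs1), the accessory subunit Uqcrq and cytochrome c1 (Cyc1) did not pass the test. Uqcrh (ENSMUSG00000063882, chr4:116066965-116075071, minus strand), an acidic protein that sits beside cytochrome c1, had 129, 106, 131.5 and 108 CPM in treated cells. In control cells it had 186, 187, 178 and 173 CPM. The highest treated library was far below the lowest control library, and the log2 fold change was -0.61 (-0.76 to -0.46, 1.53-fold lower, adjusted p = 3.83e-05). Uqcr11 (ENSMUSG00000020163, chr10:80402997-80406830, minus strand), a small subunit at the edge of the complex, had 49.2, 41.7, 43.2 and 39.3 CPM in treated cells, against 62.9, 59.0, 51.7 and 47.0 CPM in control cells. Treated replicate 1 lay above control replicate 4, so that the groups overlapped, and the log2 fold change was -0.35 (-0.55 to -0.15, adjusted p = 0.0115). With the trend over transcript length removed it was -0.20 and did not pass the test (adjusted p = 0.0598).

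The remaining subunits of complex III spread on either side of the threshold. Uqcr10 averaged 60.2 ± 5.78 CPM in treated and 74.7 ± 4.85 CPM in control cells (1.24-fold lower, adjusted p = 0.00454), without overlap. Uqcrb averaged 45.9 ± 2.37 and 53.5 ± 3.24 CPM (adjusted p = 0.00846) and Uqcrc2 172 ± 8.09 and 194 ± 9.92 CPM (adjusted p = 0.0162) in treated and control cells, also without overlap. With the length trend removed, the log2 fold change of Uqcrb was -0.09 in place of -0.22 and its call was lost (adjusted p = 0.143). The Uqcrc2 call was lost without treated replicate 2 (adjusted p = 0.0535) or treated replicate 4 (0.0543). Cyc1, which receives electrons inside the complex, had 162, 149, 162 and 147.5 CPM in treated cells, against 167, 149, 156 and 147 CPM in control cells, and its interval was -0.11 to 0.12 (adjusted p = 0.956). Uqcrq had 91.3, 83.0, 86.4 and 84.1 CPM in treated cells, against 89.6, 83.4, 87.5 and 69.9 CPM in control cells (log2 fold change 0.06, -0.09 to 0.21, adjusted p = 0.515). The groups overlapped in both genes, whose values are given because they stood out. The ratio of Uqcrh to Cyc1, a pair chosen after their values were seen as the largest and the smallest change in the complex, was 0.793, 0.713, 0.812 and 0.730 in treated libraries and 1.12, 1.25, 1.14 and 1.18 in control libraries. Uqcrfs1 averaged 154 ± 10.1 CPM in treated and 169 ± 9.91 CPM in control cells (adjusted p = 0.0933), and fell with the replicate block (0.00208) or without control replicate 4 (0.0303). Uqcrc1 averaged 185 ± 7.61 and 194 ± 4.8 CPM in treated and control cells (adjusted p = 0.215).

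**Figure D3:**
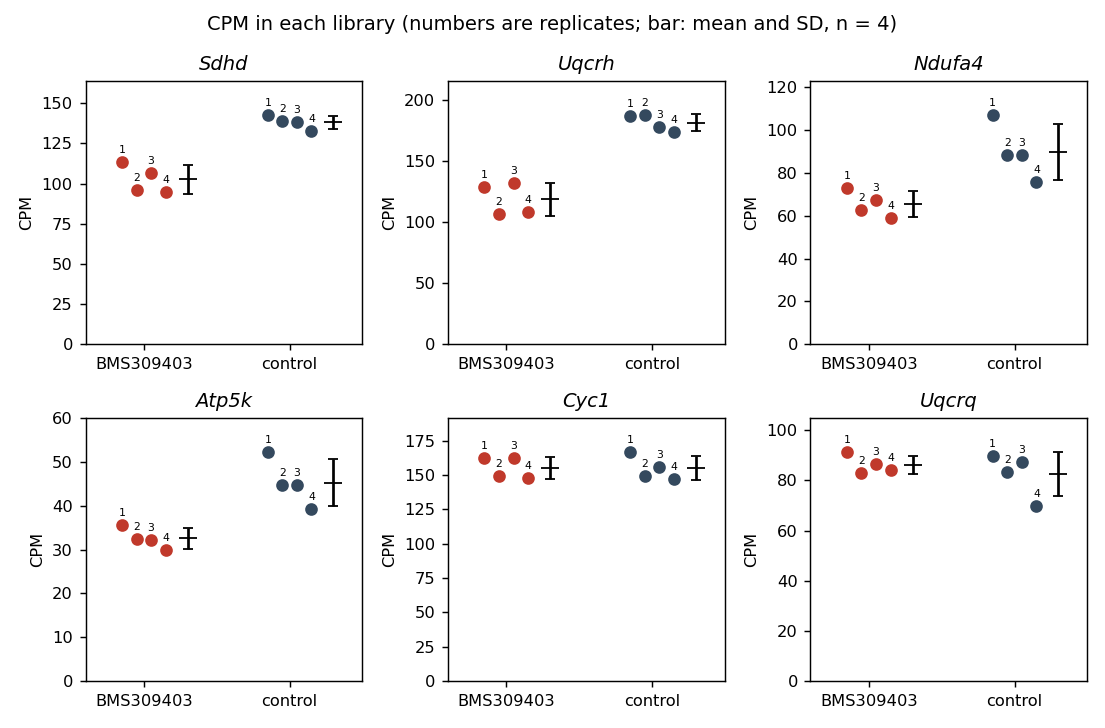
Level (CPM, y axis) of Sdhd, Uqcrh, Ndufa4, Atp5k, Cyc1 and Uqcrq in each library (points, numbered by replicate) with BMS309403 left of control, and bars for the mean and SD (n = 4). In the first 4 genes all treated points lie below all control points, and in Cyc1 and Uqcrq the groups overlap.

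Cytochrome c (Cycs, ENSMUSG00000063694, chr6:50562563-50566538, minus strand), the mobile carrier between complexes III and IV, was lower in treated cells near the threshold. It had 57.2, 50.0, 51.5 and 48.8 CPM in treated cells, against 74.7, 62.8, 57.6 and 52.9 CPM in control cells. Control replicate 1 was the highest library, and treated replicate 1 lay above control replicate 4. The log2 fold change was -0.26 (-0.46 to -0.06, 1.19-fold lower, adjusted p = 0.0464). The call was lost when any of 6 libraries was left out, namely treated replicates 2, 3 and 4 (adjusted p = 0.111, 0.0912 and 0.118) and control replicates 1, 2 and 3 (0.0757, 0.0976 and 0.055). It was also lost in limma-voom (log2 fold change -0.25, adjusted p = 0.053) and with the level of nuclear-retained RNAs as a covariate (-0.12, adjusted p = 0.158).

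In complex IV, cytochrome c oxidase, 10 of 12 subunits fell and their median log2 fold change was -0.23. Ndufa4, a subunit first assigned to complex I, and Cox7b, a small membrane subunit, fell most. Ndufa4 (ENSMUSG00000029632, chr6:11900292-11907497, minus strand) had 73.0, 62.8, 67.6 and 59.1 CPM in treated cells, against 107, 88.6, 88.2 and 75.6 CPM in control cells. The groups did not overlap, although control replicate 4 came close to treated replicate 1. The log2 fold change was -0.45 (-0.66 to -0.25, 1.37-fold lower, adjusted p = 0.0028). Cox7b (ENSMUSG00000031231, chrX:106015700-106022450, plus strand) had 75.0, 67.5, 69.4 and 64.9 CPM in treated cells, against 103, 90.4, 93.3 and 83.9 CPM in control cells. Its groups did not overlap either, and its log2 fold change was -0.42 (-0.56 to -0.28, adjusted p = 0.000345).

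The other subunits of complex IV that fell were 1.13-fold to 1.34-fold lower. Cox6b1, which faces the intermembrane space where cytochrome c docks, averaged 98.1 ± 9.59 CPM in treated and 131 ± 9.82 CPM in control cells (1.34-fold lower, adjusted p = 0.000768). Cox8a averaged 183 ± 7.91 and 221 ± 12.4 CPM in treated and control cells (adjusted p = 0.00135). Cox7a2, Cox5b and Cox6c, structural subunits around the catalytic core, had adjusted p of 0.00619, 0.00901 and 0.00931. Removing the length trend ended the calls of Cox6c (log2 fold change -0.11, adjusted p = 0.138), Cox4i1 (-0.12, 0.0761), Cox5a (-0.11, 0.194) and Cox6a1 (-0.05, 0.322). Cox4i1, the regulatory subunit that binds ATP, averaged 234 ± 21.3 CPM in treated and 272 ± 14.0 CPM in control cells (adjusted p = 0.0178). The calls of Cox4i1, Cox5a (adjusted p = 0.0434) and Cox6a1 (0.0197) were lost without treated replicate 2 (0.0614, 0.128 and 0.0584 for these 3 genes), treated replicate 4 (0.0569, 0.107 and 0.062) or control replicate 3 (0.052, 0.0799 and 0.0599). The Cox5a call was also lost without treated replicate 3 (0.0677), control replicate 1 (0.0775) or control replicate 2 (0.0709). Cox7a2l, a relative of subunit 7A, averaged 175 ± 10.2 CPM in treated and 183 ± 3.76 CPM in control cells, with an interval of -0.16 to 0.04. Cox7c averaged 76.8 ± 3.14 and 82.7 ± 7.82 CPM in treated and control cells (adjusted p = 0.2), and fell with the replicate block (0.0302).

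In complex V, 11 of 15 subunits fell (median log2 fold change -0.26), and the abundant alpha and beta subunits of the catalytic head did not pass the test. The membrane subunits Atp5k (subunit e) and Usmg5 (DAPIT), which lie where ATP synthase dimers meet, fell most. Atp5k (ENSMUSG00000050856, chr5:108433244-108434448, minus strand) had 35.7, 32.3, 32.1 and 29.9 CPM in treated cells, against 52.3, 44.7, 44.8 and 39.2 CPM in control cells. The groups did not overlap, and the log2 fold change was -0.47 (-0.65 to -0.30, 1.39-fold lower, adjusted p = 0.000818). Usmg5 (ENSMUSG00000071528, chr19:47083464-47090647, minus strand) had 48.2, 42.2, 49.8 and 43.8 CPM in treated cells, against 73.8, 60.9, 58.7 and 54.5 CPM in control cells. Here treated replicate 3 was the highest treated library and still lay below control replicate 4, the lowest control library (log2 fold change -0.43, -0.62 to -0.24, adjusted p = 0.00238).

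The 3 genes of the c ring, Atp5g1, Atp5g2 and Atp5g3, encode the same mature ring protein behind different import sequences. Of these, 2 fell and Atp5g1 did not pass the test. Atp5g3, the most abundant, had 257, 204, 231 and 201 CPM in treated cells, against 310, 283, 284 and 255 CPM in control cells. Treated replicate 1 lay just above control replicate 4, and the log2 fold change was -0.34 (adjusted p = 0.00614). Atp5g2 had 100.9, 98.3, 105 and 98.8 CPM in treated cells, against 109, 108.5, 111 and 106 CPM in control cells, a narrow but complete separation (log2 fold change -0.11, adjusted p = 0.0439). With the trend over transcript length removed, its log2 fold change was 0.01 and the direction was lost. The call also ended with total counts as scaling (adjusted p = 0.0731), with no filter on low counts (0.167) and with the nuclear RNA covariate (0.079). Its call was lost without treated replicates 1, 2 or 4 (adjusted p = 0.0645, 0.128 and 0.115) or control replicates 1, 2 or 3 (0.0555, 0.0918 and 0.118). Atp5g1 had 88.0, 74.5, 83.8 and 70.1 CPM in treated cells, against 100.1, 91.0, 94.9 and 78.1 CPM in control cells, with overlapping groups (log2 fold change -0.20, -0.38 to -0.02, adjusted p = 0.0777). Atp5g1 passed with the replicate block (9e-05), without treated replicate 1 (0.0331) and without control replicate 4 (0.0153). As a share of the counts of the 3 genes, Atp5g3 made up 57.7%, 54.2%, 55.0% and 54.3% in treated libraries, against 59.7%, 58.6%, 57.9% and 58.1% in control libraries. Atp5g2 made up 22.6%, 26.1%, 25.0% and 26.7% in treated libraries, against 21.0%, 22.5%, 22.7% and 24.1% in control libraries. The treated shares of Atp5g3 all lay below the control shares, while those of Atp5g2 overlapped.

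Among the rest of complex V, the peripheral stalk and small membrane subunits fell. Of the 5 F1 subunits, alpha to epsilon, 3 did not pass the test. Subunits d (Atp5h) and F6 (Atp5j) of the stalk and f (Atp5j2) of the membrane part had log2 fold changes of -0.26, -0.27 and -0.29 with adjusted p of 0.00775, 0.00407 and 0.00857. Atp5c1, the rotating gamma subunit, fell with an adjusted p of 0.0125. The calls of Atp5e (epsilon, adjusted p = 0.0172), Atp5l (subunit g, 0.0318) and Atp5o (OSCP, which joins stalk and head, 0.044) were lost without treated replicate 2 (0.0574, 0.0976 and 0.131), treated replicate 4 (0.0547, 0.0505 and 0.125) or control replicate 2 (0.0558, 0.0714 and 0.0898). Atp5l was also lost without treated replicate 1 (0.0632), and Atp5l and Atp5o without control replicate 1 (0.0547 and 0.0758) or control replicate 3 (0.0561 and 0.0954). With the length trend removed Atp5e, Atp5l and Atp5o did not pass the test (adjusted p = 0.0704, 0.145 and 0.129), nor did Atp5l and Atp5o with the nuclear RNA covariate (0.0991 and 0.0908). The complex V count was 7 of 15 without treated replicate 2, treated replicate 4 or control replicate 2. Atp5b, the catalytic beta subunit and the highest of the 41 genes, averaged 1221 ± 87 CPM in treated and 1323 ± 66 CPM in control cells, with an interval of -0.24 to 0.01 (adjusted p = 0.137). Atp5a1, the alpha subunit, averaged 829 ± 56.3 and 907 ± 47.5 CPM (adjusted p = 0.0949), and Atp5d, the delta subunit, 239 ± 15.7 and 264 ± 20.6 CPM (0.0981) in treated and control cells. With the replicate block Atp5b, Atp5a1 and Atp5d fell (0.00593, 0.00215 and 0.00245). Without treated replicate 1, Atp5a1 (0.0352) and Atp5b (0.0496) passed the test, as did Atp5d without control replicate 4 (0.0165).

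Per kilobase of transcript, the levels of the 41 genes spanned a wide range. Atp5b was the highest at 637 CPM per kb in treated and 690.5 CPM per kb in control cells. Cox8a had 333.5 and 402 CPM per kb, Atp5g3 311 and 393.5 CPM per kb, and Uqcrh 249.8 and 382 CPM per kb in treated and control cells. Cycs was the lowest at 16.6 CPM per kb in treated and 19.9 CPM per kb in control cells. The order does not give stoichiometry, since transcript length was taken as the median over each gene's annotated coding transcripts.

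Across the data set a larger share of short than of long transcripts fell, and most of the 41 genes have short transcripts. The median transcript of the 41 genes had 742 bases, against 2678.5 bases for the 12107 protein-coding genes tested. Of 1012 genes under 1 kb, 31.7% fell and 7.51% rose, and 23 of the 26 members in that class fell, their median log2 fold change being -0.27 against -0.11 for the class. Between 1 and 2 kb, 22.8% of 2983 genes fell, and 5 of 11 members fell with a median of -0.13 against -0.02. Between 2 and 4 kb, 19.3% of 5135 genes fell, and 2 of 4 members did. Across the 41 genes, log10 transcript length and log2 fold change had a Pearson r of 0.44 and a Spearman rho of 0.51. Over all tested protein-coding genes they were 0.11 and 0.17. These are correlations across genes measured in the same 8 libraries, and genes are not independent replicates. With the trend over length removed, 20 of the 41 genes fell, against 18.2% of all genes, 1 rose (Uqcrq, log2 fold change 0.20, adjusted p = 0.0128) and the median was -0.15. The count then was 3 of 4 in complex II, 3 of 9 in complex III, 6 of 12 in complex IV and 7 of 15 in complex V. The 10 genes that lost their call were Uqcrb, Uqcr11, Cox4i1, Cox5a, Cox6a1, Cox6c, Atp5e, Atp5g2, Atp5l and Atp5o.

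**Figure D4:**
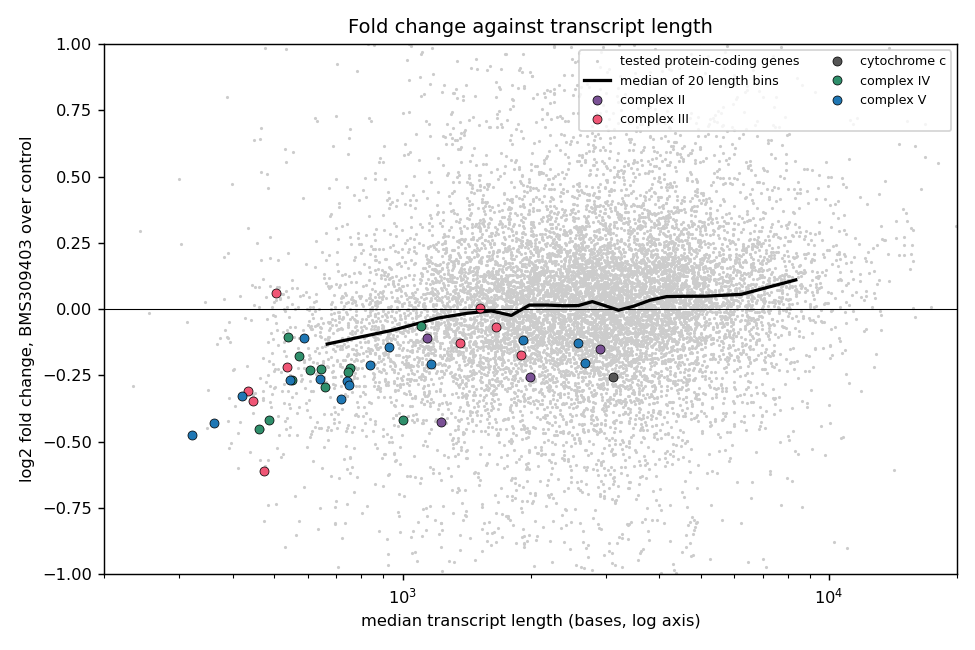
Log2 fold change (BMS309403 over control, y axis, limited to 1 on either side of zero so that points beyond are not drawn) against transcript length (bases, log axis) for tested protein-coding genes and the 41 members. Members lie mostly at lengths under 1000 bases and below zero.

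Of 4 RNAs retained in the nucleus, 2 rose and 2 did not pass the test. The summed level of Malat1, Neat1, Kcnq1ot1 and Rn7sk was 326, 617, 391 and 593 CPM in treated libraries, against 254, 388, 365 and 440.5 CPM in control libraries, and the groups overlapped. It was highest in treated replicates 2 and 4 and, among controls, in replicate 4, which within each group are the libraries in which the 41 genes were lowest. Malat1 (log2 fold change 0.93, adjusted p = 0.0229) and Rn7sk (2.04, adjusted p = 8.18e-06) rose, while Neat1 was at 0.08 and Kcnq1ot1 at 0.33 (log2). With this sum as a covariate, an alternative added after the data were seen, 25 of the 41 genes fell and the median was -0.15. The sum averaged 481.8 CPM in treated and 362 CPM in control libraries, and 2 of its 4 RNAs rose with treatment. The covariate may therefore take up part of the treatment difference itself. Of all genes, 19.7% fell in that fit. Cycs, Cox5a (adjusted p = 0.099), Atp5g2, Atp5l and Atp5o lost their calls with the covariate. Without treated replicates 2 and 4, also added after the data were seen, 7 of the 41 genes fell, against 9.52% of all genes, and the median log2 fold change was -0.17. Without control replicates 1 and 4, 30 fell, against 17% of all genes, and the median was -0.24.

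**Figure D5:**
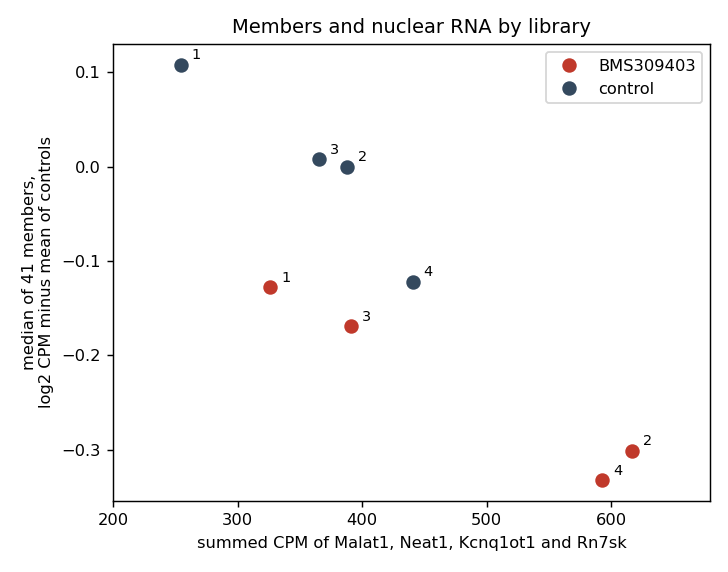
Median log2 deviation of the 41 genes from their control means (y axis) against the summed level of 4 nuclear-retained RNAs (CPM, x axis) in the 8 libraries. Treated replicates 2 and 4 lie at the right with the lowest medians.

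The mitochondrially encoded partners of these complexes were lower too, with another order of libraries. All 5 tested subunits passed the test as lower, but 3 of them held so few counts that only mt-Cytb and mt-Co1 are read as transcript levels. Transcripts of mt-Cytb, the cytochrome b of complex III, averaged 670.2 ± 98.6 CPM in treated and 1150 ± 57.4 CPM in control cells (log2 fold change -0.78, adjusted p = 3.55e-05). Those of mt-Co1, the catalytic subunit of complex IV, averaged 2717 ± 253 and 3448 ± 369 CPM (-0.34, adjusted p = 0.00734). The other 3 held only 7 to 46 counts in a library. Counts of mt-Co2 averaged 0.316 CPM in treated and 0.718 CPM in control cells (adjusted p = 0.00831). Those of mt-Atp6 averaged 0.247 and 0.541 CPM (0.00221), and those of mt-Co3 0.649 and 1.01 CPM (0.0376). Whether these 3 genes lost reads to near-identical copies elsewhere was not tested. Their values therefore do not show that their transcripts were rare or that they fell. The mt-Co3 call was lost without treated replicates 1, 2 or 4 (0.0525, 0.106 and 0.0839) or control replicates 1 or 2 (0.0902 and 0.059). Counts assigned to mitochondrial genes made up 0.591%, 0.608%, 0.484% and 0.568% of counts in treated libraries, against 0.639%, 0.704%, 0.700% and 0.781% in control libraries. Control replicate 4 was the highest here and the lowest in most nuclear-encoded members, and control replicate 1 the lowest here and the highest in most members. In complex I, 17 of 36 nuclear subunits fell (47.2%, against 18.1% of all genes) and none rose (against 18.7%). Their median log2 fold change was -0.16. Many complex I subunits have transcripts under 1 kb, and of all protein-coding genes in that class 31.7% fell, with a median of -0.11. In complex I, transcript length was not examined separately. The accessory subunits Ndufb2 (-0.50), Ndufv3 (-0.45) and Ndufa5 (-0.36) fell most.

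Of 9 other subunits, isoforms and relatives outside the set of 41 that could be tested, 4 fell and 1 rose. Cox6a2, the heart and muscle isoform of subunit 6A, had 1.196, 1.74, 1.73 and 2.14 CPM in treated cells, against 0.124, 0.247, 0.327 and 0.1996 CPM in control cells. It was 7.46-fold higher (log2 fold change 2.90, adjusted p = 7.04e-06), at a low level in both groups. AA467197 (Nmes1 in the RefSeq table), a relative of Ndufa4, had 5.44, 5.80, 6.54 and 7.59 CPM in treated cells, against 13.5, 13.4, 19.5 and 16.1 CPM in control cells (2.46-fold lower, adjusted p = 1.75e-05). In both genes the groups were far apart. 2010107E04Rik, a small protein of the ATP synthase, averaged 48.8 ± 3.97 CPM in treated and 62.2 ± 7.95 CPM in control cells (adjusted p = 0.00803). Atp5f1, a subunit of the ATP synthase, averaged 195 ± 11.2 CPM in treated and 222 ± 18.9 CPM in control cells (adjusted p = 0.0365), with overlapping groups.

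Among assembly factors of complex IV, 6 of 26 fell (23.1%) and 6 rose, near the shares of all genes (18.1% and 18.7%), and the median log2 fold change was -0.03. Sco1, which delivers copper to subunit 2, averaged 26.4 ± 1.85 CPM in treated and 12.2 ± 0.975 CPM in control cells, 2.17-fold higher (adjusted p = 3.73e-07). Higd1a, a hypoxia-induced protein that binds complex IV, averaged 75.9 ± 9.01 and 114.5 ± 12.6 CPM (log2 fold change -0.59, adjusted p = 0.000423), and Cox18, which inserts subunit 2 into the membrane, 17.9 and 13.2 CPM (0.45, 0.000127) in treated and control cells. For complex II, 1 of 4 fell: Sdhaf1, which helps to place iron-sulfur clusters in Sdhb, averaged 32.7 ± 1.6 CPM in treated and 49.7 ± 2.02 CPM in control cells (1.52-fold lower, adjusted p = 2.91e-06). For complex III, 1 of 6 fell (Uqcc2, needed for cytochrome b, log2 fold change -0.32, adjusted p = 0.0256) and 1 rose (Ttc19, 0.33, adjusted p = 0.0111). The Uqcc2 call was lost without treated replicate 2 (0.0783), treated replicate 4 (0.0772) or control replicate 2 (0.0729). For complex V, 1 of 5 fell (Fmc1, log2 fold change -0.28, adjusted p = 0.041), and its adjusted p was between 0.0536 and 0.111 when treated replicate 2, 3 or 4 or control replicate 1, 2 or 3 was left out. A list of 12 genes around cytochrome c and heme includes Cycs itself. Besides Cycs, 5 of its genes fell, 6 did not pass the test and none rose. The steepest falls were in Ucp2, an inner-membrane carrier (621 and 918 CPM in treated and control cells, log2 fold change -0.56), Vdac1, the pore of the outer membrane (256 and 342 CPM, -0.42), and Hccs, which attaches heme to cytochrome c (46.2 and 56.0 CPM, -0.28).

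Of 14 regulators of respiratory genes tested, 2 fell (14.3%, against 18.1% of all genes) and 5 rose (against 18.7% of all genes), and their median log2 fold change was -0.02. Nrf1, the factor whose letters were searched above, fell by 0.20 on the log2 scale (adjusted p = 0.00307), and Yy1 fell by 0.25 (0.000175). Gabpa, the DNA-binding subunit of GABP, was at -0.09 (adjusted p = 0.0835), while its partner Gabpb1 rose by 0.18 (0.0141, and 0.054 without control replicate 2). Pprc1, a coactivator related to PGC-1α, rose by 0.34 (0.00698), Myc by 0.53 (0.000852) and Hif1a by 0.34 (2.57e-05). Prkaa1, a catalytic subunit of AMP-activated kinase, rose by 0.13 (0.0395), and its adjusted p was between 0.0505 and 0.117 without treated replicate 1, 2 or 4 or control replicate 2, 3 or 4. Tfam, which packages and transcribes mitochondrial DNA, was at -0.01 and Ppargc1b, another such coactivator, at -0.03, and neither passed the test. Ppargc1a was too low to be tested.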

How the data were processed

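Per the submitters' processing notes, STAR, featureCounts, DESeq2 and deepTools were used with the GRCm38 build, without versions or roles. Each of the 8 deposited tables holds raw read counts per Ensembl gene ID, with no normalization. Libraries were stranded and poly(A)-selected per the labels' protocols. The strand setting and the treatment of reads with several matches are not given in the sources used here, so genes with near-identical copies or overlapping neighbours are uncertain. The 8 named pseudogene copies of 5 members held at most 0.304% of a member's counts.

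Symbols, coordinates and transcript lengths came from GENCODE M21. The members, lists and tests were chosen with earlier results of these data known. Genes past filterByExpr were tested with edgeR 4.0.16 (R 4.3.3; quasi-likelihood F test, TMM normalization, treatment alone in the model) and called under a Benjamini-Hochberg adjusted p of 0.05. Each adjusted p in the text is from this test unless another is named. Intervals are 95%. CPM are counts per 1000000 of TMM-adjusted library size, given per library in replicate order or as mean ± SD of 4 libraries. Fold changes are fitted values. The fit was tested on simulated data.

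Values per library are given for the 2 genes with the largest change in each complex, Cycs and the c-ring genes, and up to 3 called genes are named per list. Other single genes were chosen after their values were seen. Within a group, libraries differed beyond sampling noise (chi-square per degree of freedom 3.08 to 24.2), and all 8 were kept as separate samples.

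The replicate numbers come from the titles, which do not say what they share. Deviations from the group means over all genes correlated at 0.384, 0.145, 0.106 and 0.264 between same-numbered libraries. All are above 0.1, and on that ground equal numbers were treated as pairs in an alternative fit with the number as a block. Over the 41 members alone these correlations were 0.201, -0.297, 0.003 and 0.199. Over all genes, treated replicate 2 correlated more closely with another control library than with control replicate 2. Other alternatives were DESeq2 1.42.0, limma-voom (limma 3.58.1), other scalings and filters, a minimum change of 1.2-fold (glmTreat), removal of the transcript length trend (loess, span 0.5), addition of pseudogene counts and leaving out each library.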

Additional observations from a re-analysis of the deposited data

How the results depend on the processing

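With the replicate numbers as a block, 37 of the 41 genes fell, against 25.8% of all genes, and the median log2 fold change was -0.23. The block ended no call of a member and added 7. Uqcrc1, Uqcrq, Cyc1 and Cox7a2l did not pass in either fit. Between 29 and 30 of the 41 genes fell with DESeq2 size factors, total counts, no filter on low counts, DESeq2, limma-voom and pseudogene counts added, with medians of -0.24 to -0.21. Of all genes tested, 9.23% (no filter on low counts) to 18.7% (DESeq2 size factors) fell in these fits. Leaving out each library in turn gave 21 to 33 genes, against 13.8% to 19% of all genes. The medians were -0.27 to -0.19, and 21 genes fell without treated replicate 2 or without treated replicate 4. Of the 30 genes called, 21 stayed called in all 8 fits without 1 library. Asking for a change beyond 1.2-fold left 4 genes, against 4.89% of all genes. Leaving out treated replicates 2 and 4 left 7, against 9.52% of all genes, in a fit with fewer libraries. With the length trend removed, with or without the block, 1 gene rose (Uqcrq). The fit with both the block and the length trend removed gave 31 genes that fell, against 25.9% of all genes. Changes of sign were seen in genes near zero that are not called, and in Atp5g2. Cyc1 was at 0.00 on the negative side with DESeq2 size factors and with DESeq2, and at -0.02, -0.02, -0.01 and -0.02 without treated replicate 1, treated replicate 3, control replicate 2 and control replicate 4. Over all fits without 1 library Cyc1 ran between -0.02 and 0.04. Uqcrq ran between -0.01, without control replicate 4, and 0.10. Cox7c was at 0.02 and Atp5g2 at 0.01 with the length trend removed, with or without the block. The causes were not tested. The lowest count of the 41 genes in a library was 872.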
